A study of Homo sapiens with 30 samples.

Results

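RNA of U87 cells labelled as without IFN-γ for 14 days was compared with RNA of U87 cells labelled as kept in IFN-γ to the same day, day 28. U87 (U87-MG) is a human glioblastoma line with a mesenchymal expression profile. The line is known for mix-ups in its history, and per the methods no STR typing was done on the cells once received. The continuous arm, D28, received IFN-γ at 1 µg/mL for 28 days, and the washout arm, D28WO, received the same IFN-γ for 14 days and medium without it for the next 14 days. In the sample titles the continuous arm is written D28W and the washout arm D28WO, and the arms were read from the treatment and time tags, which call the first continued and the second withdrawn. The dose is that of the protocol label, while the treatment tags give the same number in µL/mL and the methods a different concentration. The cultures were split at day 14, so both arms share 14 days of exposure. Each arm has 3 libraries, described in the methods as independent culture preparations, and these 6 libraries were taken from 30 in the series. Of the 61471 genes in the U87 table, 23373 had a mean of at least 0.5 TPM (transcript counts scaled by length and to 1 common library total) over the 6 libraries and were tested. Another 7 U87 libraries are used only for reference. They are 3 Untreated (no IFN-γ, labelled day 3), 2 from day 3 of IFN-γ (D3) and 2 from day 14 (D14). No untreated culture of day 28 was analysed here, so the levels of both arms stand against cells of an earlier day. The interferon genes do not follow the labels of D14 and D28WO, as described below, and the cause was not tested. The libraries are taken as labelled, and each direction is between those labelled D28WO and D28.

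IFN-γ binds a receptor of 2 chains, IFNGR1 and IFNGR2, to which the kinases JAK1 and JAK2 are bound. The signal reaches gamma-activated sites (GAS) in promoters and induces IRF1 and CIITA, which in turn drive genes of antigen presentation. Antiviral genes carry interferon-stimulated response elements (ISRE), which complexes with STAT2 and IRF9 bind. Interferon-induced RNAs usually fall once the cytokine is removed, and in tumor cells the cytokine also slows division. Glioma cells in addition make NF-κB driven cytokines of their own, among them IL-6 and IL-8.

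The largest differences between the arms did not lie in the core IFN-γ genes. At D28WO the interleukin-1 cytokines IL1A and IL1B, IL6, the chemokine CCL20 and genes of the ATF4 amino acid response were higher than at D28. DNA replication genes such as CCNE2 and CDC6, glycolytic enzymes such as LDHA, and the antiviral genes OAS1 and OAS3 were lower. IRF1 and CIITA differed by less than the test could separate. Fold changes are D28WO minus D28 on the log2(TPM + 1) scale, with the limma standard error after the ± sign and a Benjamini-Hochberg adjusted p over all 23373 genes. A gene passed with an adjusted p under 0.05.

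Of the genes tested, 2319 were higher at D28WO (9.92%) and 1950 were lower (8.34%), 18.3% in all. With a log2 fold change over 1 in size as well, 739 were higher (3.16%) and 564 were lower (2.41%), 5.57% in all. The 3 D28WO libraries lay above all 3 D28 libraries for 4779 genes (20.4%) and below them for 3688 (15.8%), 36.2% in all. The median over all genes tested was 0.045. Among the 739 higher genes, all D28WO libraries lay above every Untreated library for 654 and above every other U87 library for 534. Among the 564 lower genes the D28WO libraries lay below every Untreated library for 295, overlapped them for 228 and lay above them for 41, and they were below every other U87 library for 257. Among all genes tested, 37.3% lay above every Untreated library at D28WO, 26.3% at D28 and 29.1% at D14, and 16% lay below them at D28WO, 9.95% at D28 and 9.69% at D14. Of the genes that passed, the D28WO libraries exceeded every other U87 library for 76.5% of the 2319 higher ones and were below every other for 62.9% of the 1950 lower ones. In bulk RNA a lower level may come from fewer cells with the transcript or from less transcript per cell, and these cannot be told apart here.

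**Figure D1:**
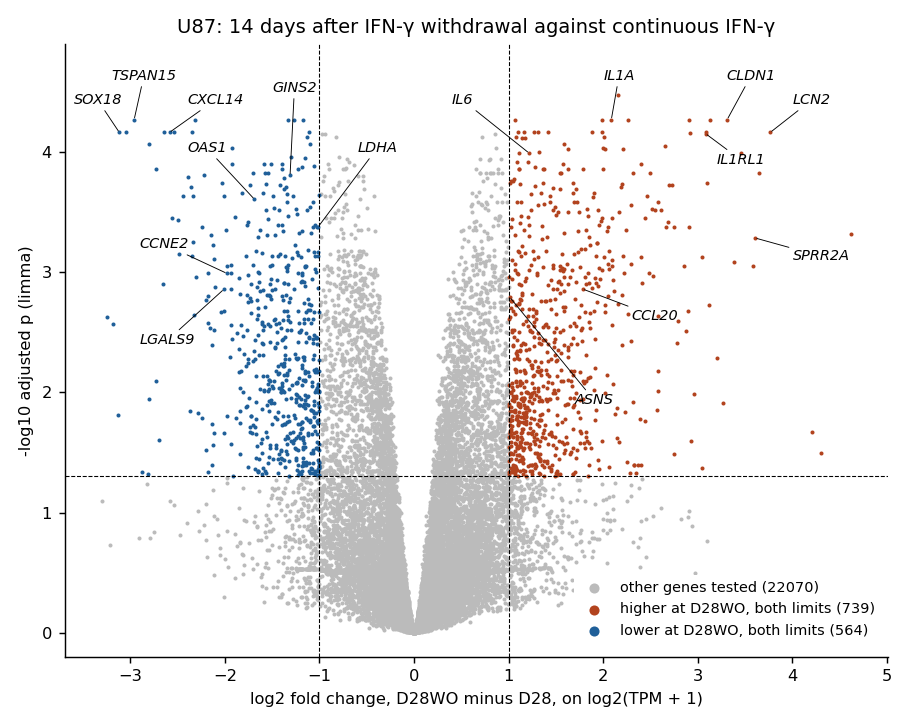
Each point is 1 of the 23373 genes tested, with the log2 fold change of D28WO minus D28 on the x axis and −log10 of the adjusted limma p on the y axis, and dashed lines mark both limits. The 739 higher and 564 lower genes past both limits are drawn in color.

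The libraries of an arm resembled each other more than those of the other arm. Pearson correlations of log2(TPM + 1) were 0.959 to 0.964 within D28, 0.966 to 0.967 within D28WO and 0.940 to 0.953 between the arms. D28WO libraries listed 27719 to 28649 genes above 0, against 26096 to 28438 at D28 (exact permutation test, two-sided, p = 0.3, where 3 libraries against 3 allow no p below 0.1). The share of signal in mitochondrially encoded RNA was 0.578 to 0.591% and 0.526 to 0.911% (exact permutation test, p = 0.4). The 100 highest genes held 5.96 to 6.30% of the signal at D28WO and 6.34 to 6.91% at D28, which did not overlap (exact permutation test, p = 0.1, the smallest possible). Its part in the results was not tested. The line's defining markers VIM and CD44 were high in all 6 libraries, although 5 of the 8 tested line identity genes were lower at D28WO (VIM, NES, SOX9, CHI3L1 and S100B), with OLIG2 higher. The calls of VIM, SOX9, CHI3L1 and S100B were each lost without single libraries, and VIM also turned its sign under quantile normalization, whereas those of NES and OLIG2 held under every alternative. SOX2 reached at most 0.218 TPM, and PTPRC, CD3E, CD3D, MS4A1, LYZ, ITGAM and NKG7, which mark blood cells, did not exceed 1.74 TPM in any. Of 9 leukocyte genes 3 were tested. CD68 and CSF1R, which mark macrophages, were lower at D28WO, with the call of CD68 lost without D28WO replicate 1 or 2, CSF1R at 39.9 to 60.0 TPM against 11.2 to 22.9 TPM, and the summed level of the 9 genes was 339 to 489 TPM at D28 and 233 to 270 TPM at D28WO. Of 5 epithelial genes 3 were tested. EPCAM was lower, at 7.07 to 9.20 TPM at D28 and 1.03 to 1.38 TPM at D28WO (log2 fold change -2.04, adjusted p = 0.00213). CDH1 and CLDN4 went the other way and did not pass (log2 fold change 0.95 and 0.50, adjusted p = 0.064 and 0.455). KRT5 and KRT14 did not exceed 1.39 TPM. The summed level of the 5 was 9.54 to 16.2 TPM at D28 and 7.96 to 8.80 TPM at D28WO. Of 5 endothelial genes 3 were tested and none passed. The part of these markers in the results was not tested.

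Before the arms are compared, the level of the interferon genes at day 14, when withdrawal began, has to be stated. IRF1, a transcription factor that IFN-γ induces (chromosome 5, 132440440 to 132508719), was at 136, 130.1 and 134 TPM in Untreated, 445 and 450.1 TPM at D3 and 134 and 109.8 TPM at D14. It then stood at 539, 457 and 443 TPM at D28 and 527, 545 and 457 TPM at D28WO. The D14 libraries did not exceed the Untreated range although IFN-γ was labelled as present, and the D28WO libraries lay far above it although IFN-γ was labelled as absent for 14 days. IDO1, the tryptophan-degrading enzyme induced by IFN-γ, was listed at 0 in both D14 libraries and at 95.5, 107 and 130.4 TPM at D28 and 135, 137 and 135 TPM at D28WO. CIITA was at 49.7 and 50.9 TPM at D14, close to its Untreated values of 50.8, 47.1 and 32.9 TPM and below the D3 values of 155 and 152 TPM. All 12 class I presentation genes, 12 class II genes, 5 immunoproteasome genes and 5 guanylate-binding protein genes lay above every Untreated library at D28 and again at D28WO, against 26.3% and 37.3% of all genes.

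For the 5 tested genes of the IFN-γ receptor, its JAK kinases and IRF1 the median log2 fold change was 0.36, with 1 higher and 0 lower, against 9.92% and 8.34% of all genes. In 4 of the 5 the washout libraries all lay above the continuous ones, against 20.4% of all genes. The arms overlapped for IRF1, which differed by 0.088 ± 0.094 with an adjusted p of 0.567, 95% confidence interval -0.12 to 0.29. CIITA, the master regulator of class II genes, was at 175, 174 and 175 TPM at D28 and 191, 191 and 192 TPM at D28WO and differed by 0.14 ± 0.12 with an adjusted p of 0.482, 95% confidence interval -0.13 to 0.40. Its D28WO libraries were all above those of D28, but the difference did not pass the test, which takes its spread from all 5 U87 groups. JAK2 was at 46.1, 35.4 and 39.8 TPM at D28 and 59.6, 50.8 and 55.7 TPM at D28WO, without overlap, and missed the threshold (log2 fold change 0.45 ± 0.16, adjusted p = 0.0683), which it passed with array weights (adjusted p = 0.0446) or only the 6 libraries in the fit (adjusted p = 0.045). The 1 gene that passed was the receptor chain IFNGR2, at 41.2, 41.7 and 48.1 TPM at D28 and 61.2, 55.3 and 61.1 TPM at D28WO (log2 fold change 0.43 ± 0.11, adjusted p = 0.0169). Its call was lost without D28 replicate 1, D28 replicate 2, D28WO replicate 1 or D28WO replicate 3 (adjusted p = 0.0551, 0.0559, 0.0647 and 0.0524). STAT2 was at 97.1, 110.3 and 103 TPM at D28 and 131, 131 and 128 TPM at D28WO, higher in all 3 washout libraries (log2 fold change 0.33 ± 0.073, adjusted p = 0.00878), and was the 1 gene to pass among 6 of the STAT2-IRF9 complex and the type I interferon receptor, a separate list.

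Promoter sequence was set beside these genes to show which of the textbook elements they carry. RefSeq promoters on GRCh38.p14, 250 bases before the annotated start, were searched on both strands, and stretches of 100 bases are printed 5′ to 3′ on the strand of the gene with the matches in capitals. IRF1 (chr5:132490844-132490943, minus strand) holds the GAS letters TTCNNNGAA, found in 6.79% of all 27195 promoters. B2M (chr15:44711330-44711429, plus strand) and OAS3 (chr12:112938374-112938473, plus strand) hold the ISRE letters TTCNNTTTC in reverse, found in 7.06%. The pair of matches in B2M overlap. A match is a description of the letters and not of binding.
IRF1: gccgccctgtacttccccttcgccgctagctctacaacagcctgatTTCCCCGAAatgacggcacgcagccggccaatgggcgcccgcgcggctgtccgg
B2M: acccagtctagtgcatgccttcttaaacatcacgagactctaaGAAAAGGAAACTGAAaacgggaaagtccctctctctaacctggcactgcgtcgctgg
OAS3: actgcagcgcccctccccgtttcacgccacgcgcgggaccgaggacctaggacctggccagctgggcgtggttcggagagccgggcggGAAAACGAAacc

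Most antigen presentation genes did not pass the test. B2M, the invariant chain of class I molecules, was at 1999.6, 2328 and 2658 TPM at D28 and 3344, 3169 and 2891 TPM at D28WO. Each washout library was above each continuous one (log2 fold change 0.44 ± 0.11, adjusted p = 0.0151). The call was lost without D28 replicate 1, D28WO replicate 1 or D28WO replicate 2 (adjusted p = 0.0505, 0.0677 and 0.0522) and with median-ratio size factors (adjusted p = 0.154). Quantile normalization cannot test it, because B2M is the highest gene of every D28 and D28WO library. That method gives the highest gene of each library the same value. In the class I list 3 of 12 genes were higher and 0 lower (median 0.14), against 9.92% and 8.34% of all genes. Reads of HLA genes may be divided between close relatives, and none is described singly. The class II list had a median of -0.18, but -0.28 without D28 replicate 2 and -0.12 without D28 replicate 3. Of its 12 genes 1 was higher and 1 lower, near the 9.92% and 8.34% of all genes. In 5 of the 12 the washout libraries all lay below the continuous ones, against 15.8% of all genes. The 5 immunoproteasome genes had a median of 0.058 with none called, and 0.0082 to 0.12 when single libraries were left out. PD-L1 (CD274) was at 72.8, 66.4 and 61.7 TPM at D28 and 66.2, 68.9 and 69.4 TPM at D28WO and the arms overlapped (log2 fold change 0.029 ± 0.16, adjusted p = 0.932, 95% confidence interval -0.32 to 0.38).

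Most antiviral interferon-stimulated genes did not pass, and those that did were mainly lower. Of 35 tested, 2 were higher and 8 were lower, against 9.92% and 8.34% of all genes, and the list median was -0.056, but -0.11 when D28WO replicate 1 was left out, -0.10 when D28 replicate 2 was and -0.029 when D28 replicate 3 was. Without single libraries the number of lower genes was 5 to 7, with 5 without D28 replicate 1, D28WO replicate 1 or D28WO replicate 2. Above every Untreated library lay 33 of the 35 genes at D28 and 33 at D28WO, against 26.3% and 37.3% of all genes. The clearest were the oligoadenylate synthetases, which make the activator of RNase L and lie side by side on chromosome 12. OAS1 (chromosome 12, 112905856 to 112933219) was at 62.6, 57.5 and 57.5 TPM at D28 and 17.3, 15.1 and 21.2 TPM at D28WO. OAS3 (chromosome 12, 112938051 to 112976460) was at 67.2, 69.7 and 69.7 TPM at D28 and 28.6, 30.2 and 40.5 TPM at D28WO, and OAS2 (chromosome 12, 112978395 to 113011723) at 78.0, 80.6 and 79.4 TPM at D28 and 48.5, 44.4 and 51.9 TPM at D28WO. For each of these genes all washout libraries lay below all continuous ones, and the log2 fold changes were -1.69 ± 0.19 with an adjusted p of 2.5e-04, -1.05 ± 0.15 with an adjusted p of 9.4e-04 and -0.71 ± 0.12 with an adjusted p of 0.00201. OASL, a related gene elsewhere on the chromosome, was at 79.0, 91.0 and 86.6 TPM at D28 and 71.9, 71.8 and 78.5 TPM at D28WO and did not pass (log2 fold change -0.20 ± 0.09, adjusted p = 0.145). The OAS genes are paralogs, and reads of shared stretches may be divided between them.

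IFITM2, which blocks virus entry at membranes, was at 132, 111 and 121 TPM at D28 and 69.4, 66.8 and 80.3 TPM at D28WO (log2 fold change -0.75 ± 0.13, adjusted p = 0.00266), and its washout libraries were close to the Untreated values of 62.8, 69.7 and 46.5 TPM. CMPK2, a mitochondrial nucleotide kinase encoded beside the antiviral gene RSAD2, was at 19.2, 22.6 and 16.1 TPM at D28 and 7.07, 4.88 and 9.54 TPM at D28WO (log2 fold change -1.34 ± 0.28, adjusted p = 0.00687), lower in every washout library. In contrast ISG15, the ubiquitin-like modifier, was at 82.5, 103 and 117 TPM at D28 and 108, 118 and 106 TPM at D28WO, with overlap between the arms (log2 fold change 0.14 ± 0.12, adjusted p = 0.469). LGALS9 (galectin-9, a ligand of the inhibitory receptor TIM-3) was the 1 gene lower among 7 checkpoint ligands and IDO1. It was at 25.3, 23.7 and 17.4 TPM at D28 and 4.52, 6.52 and 3.42 TPM at D28WO, all washout libraries below all continuous ones (log2 fold change -2.01 ± 0.32, adjusted p = 0.00139), and at 0.111 and 0.106 TPM at D14. TNFSF10, the death ligand TRAIL, was picked after its values were seen. It was at 21.0, 22.2 and 26.4 TPM at D28 and 9.25, 4.44 and 9.56 TPM at D28WO, again without overlap (log2 fold change -1.52 ± 0.29, adjusted p = 0.00381).

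**Figure D2:**
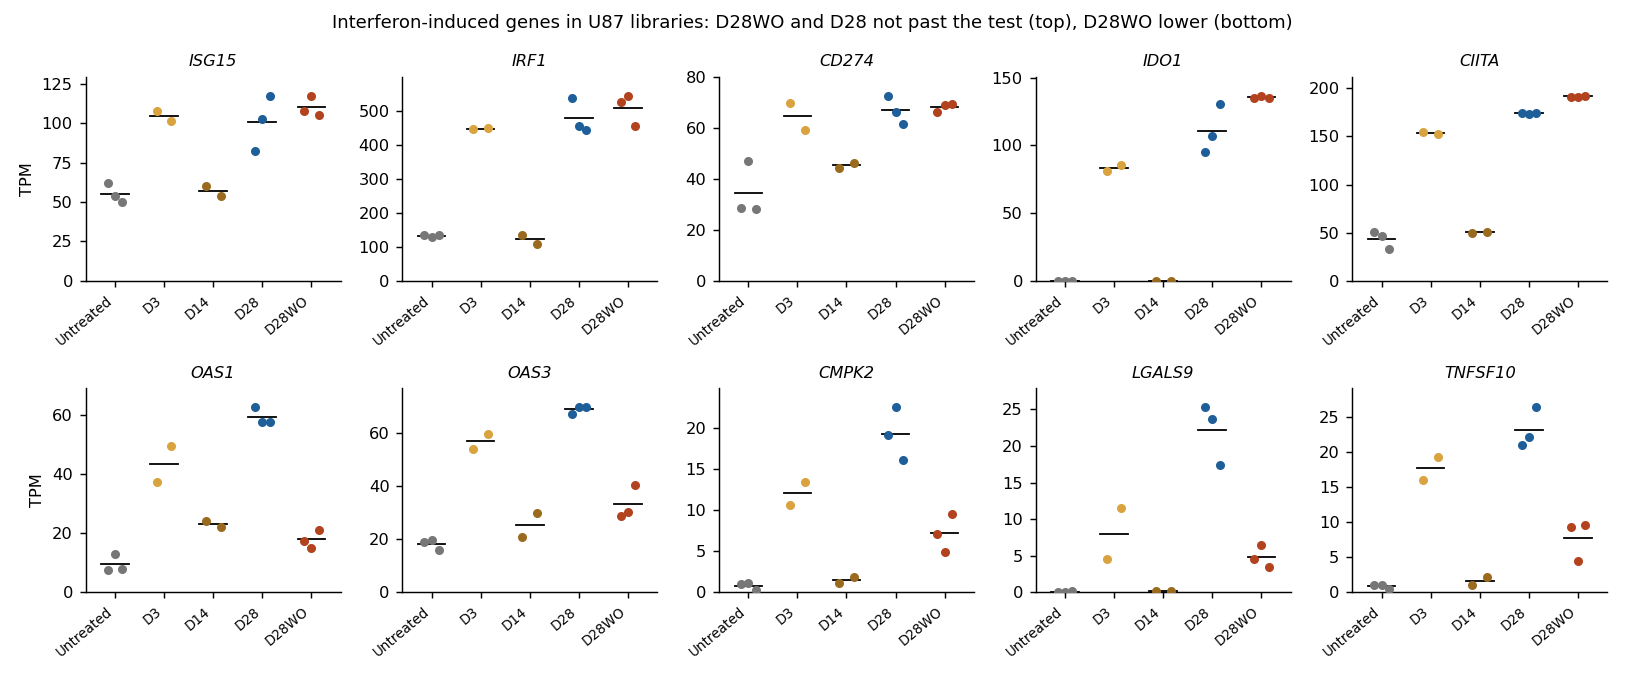
TPM of 10 interferon genes in the 13 U87 libraries, 1 point per library and a bar at the group mean. ISG15, IRF1, CD274, IDO1 and CIITA are near their Untreated level at D14 and high in both day 28 arms, whereas OAS1, OAS3, CMPK2, LGALS9 and TNFSF10 are lower at D28WO than at D28.

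The NF-κB responsive list, which holds cytokines, chemokines and regulators that NF-κB induces, had the highest median of the 27 lists, except without D28 replicate 3 or D28WO replicate 3, when the ATF4 list stood higher, and with a mean TPM of 1 or more, when the chemokine list did. Of its 24 tested genes 18 were higher and 0 lower (median 0.68), against 9.92% higher among all genes. In 23 of 24 the washout libraries were all above the continuous ones, against 20.4% of all genes. In 24 of 24 they were above every Untreated library (37.3% of all genes), compared with 21 of 24 at D28 (26.3%) and 11 of 24 at D14 (29.1%). Of the 18 higher genes 12 exceeded every other U87 library, a share that was 76.5% for all higher genes. Promoters of CCL20 (chr2:227813718-227813817, plus strand), IL6 (chr7:22727081-22727180, plus strand) and CXCL1 (chr4:73869281-73869380, plus strand) are shown because they carry the NF-κB letters GGGNNTTTC or GGGNNTTCC, present in 14 of the 21 promoters matched for the list (66.7%) and in 9.32% of all promoters. The letters stood in 9.40% of promoters of the protein-coding genes past both limits upward and in 10.5% of those tested.
CCL20: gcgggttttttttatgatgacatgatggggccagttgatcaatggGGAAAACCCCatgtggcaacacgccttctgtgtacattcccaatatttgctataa
IL6: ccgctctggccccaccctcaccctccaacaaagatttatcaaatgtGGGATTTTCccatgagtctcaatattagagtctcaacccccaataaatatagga
CXCL1: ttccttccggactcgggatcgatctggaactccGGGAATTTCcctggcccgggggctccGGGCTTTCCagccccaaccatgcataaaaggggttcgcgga

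IL1A (chromosome 2, 112773925 to 112784493), an alarmin cytokine that signals through the IL-1 receptor to NF-κB, was at 25.3, 21.5 and 23.9 TPM at D28 and 106, 113 and 91.5 TPM at D28WO. IL1B (chromosome 2, 112829751 to 112836816), its secreted relative encoded close to it on the same strand, was at 253, 252 and 229.6 TPM at D28 and 505, 607 and 516 TPM at D28WO. Both were far from overlapping, with log2 fold changes of 2.09 ± 0.15 with an adjusted p of 5.4e-05 and 1.14 ± 0.10 with an adjusted p of 7.6e-05, and their Untreated values were 14.4, 13.4 and 13.1 TPM for IL1A and 205, 224 and 212 TPM for IL1B. IL6, the cytokine that activates STAT3, was at 170.0, 164 and 168 TPM at D28 and 377, 441 and 356 TPM at D28WO (log2 fold change 1.22 ± 0.11, adjusted p = 1.0e-04). Every washout library of IL6 was above every continuous one and also above the D3 libraries (229.7 and 196 TPM).

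The chemokine CCL20 was at 13.9, 16.7 and 14.2 TPM at D28 and 45.2, 66.3 and 51.6 TPM at D28WO. CSF2 (GM-CSF, a growth factor of myeloid cells) was at 11.9, 8.95 and 11.9 TPM at D28 and 32.2, 48.6 and 38.5 TPM at D28WO. Neither overlapped and both were raised by more than 1 on the log2 scale (log2 fold change 1.78 ± 0.28, adjusted p = 0.00138 for CCL20 and 1.76 ± 0.29 with an adjusted p of 0.00188 for CSF2). CSF2 had stood at 53.8 and 25.7 TPM at D3, a range that holds all washout libraries. The neutrophil chemokines of the CXCL cluster on chromosome 4 moved together. CXCL8 (IL-8; chromosome 4, 73740519 to 73743716) was at 209, 227 and 217 TPM at D28 and 405, 456 and 378 TPM at D28WO, CXCL1 at 18.1, 18.3 and 20.0 TPM at D28 and 35.8, 39.3 and 43.4 TPM at D28WO. CXCL2 was at 184, 178 and 159.9 TPM at D28 and 311, 372 and 317 TPM at D28WO. All 3 separated the arms, with 0.92 ± 0.10 with an adjusted p of 2.0e-04, 1.03 ± 0.17 with an adjusted p of 0.00197 and 0.93 ± 0.15 with an adjusted p of 0.00141 in this order, and CXCL3 differed by 0.89 ± 0.18 with an adjusted p of 0.00554. CXCL1, CXCL2 and CXCL3 are close paralogs whose reads may be shared. CXCL5, a neighbor that was picked after its values were seen, was at 10.4, 13.1 and 9.04 TPM at D28 and 37.6, 37.6 and 34.6 TPM at D28WO (log2 fold change 1.68 ± 0.19, adjusted p = 2.2e-04).

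Regulators of the pathway moved by under 1 on the log2 scale. RELB, a subunit of non-canonical NF-κB, was at 65.5, 51.3 and 59.4 TPM at D28 and 97.3, 99.9 and 87.8 TPM at D28WO (log2 fold change 0.69 ± 0.12, adjusted p = 0.00299). NFKBIZ, a nuclear cofactor for IL6 and LCN2 transcription, was at 133, 135 and 114 TPM at D28 and 206, 228 and 209.5 TPM at D28WO (log2 fold change 0.75 ± 0.13, adjusted p = 0.00219). Both were higher in every washout library. The inhibitor NFKBIA was at 112, 117 and 123 TPM at D28 and 129, 128 and 118 TPM at D28WO, with overlap (log2 fold change 0.093 ± 0.081, adjusted p = 0.469). SOD2, the mitochondrial superoxide dismutase, was at 417, 388 and 402 TPM at D28 and 555, 572 and 535 TPM at D28WO (log2 fold change 0.46 ± 0.082, adjusted p = 0.00282). Among 5 ligands of CXCR3 and CCR receptors, CCL2 and CCL5, which attract monocytes and T cells, were the 2 higher genes. The median of the list was 0.31, but 0.47 without D28 replicate 3 and 0.76 with a mean TPM of 1 or more. CCL2 was at 34.5, 23.3 and 47.0 TPM at D28 and 79.0, 81.9 and 77.6 TPM at D28WO (log2 fold change 1.22 ± 0.20, adjusted p = 0.00202), above every other U87 library in the washout. The interferon-induced CXCL10 was at 14.8, 15.3 and 21.4 TPM at D28 and 21.9, 20.1 and 21.7 TPM at D28WO, where the arms overlapped (log2 fold change 0.31 ± 0.22, adjusted p = 0.376).

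IL1R1, IL1RN and IL1RL1 are further genes of the IL-1 family, of which IL1R1 and IL1RN were picked after their values were seen and IL1RL1 by its size. IL1R1, the signaling receptor (chromosome 2, 102064544 to 102179874), was at 106, 99.5 and 98.1 TPM at D28 and 45.0, 46.2 and 47.6 TPM at D28WO, lower in all 3 washout libraries (log2 fold change -1.11 ± 0.094, adjusted p = 6.8e-05) and still above its Untreated values of 34.9, 43.4 and 34.8 TPM. IL1RN, the receptor antagonist, was at 32.8, 29.0 and 26.0 TPM at D28 and 16.4, 18.3 and 23.6 TPM at D28WO and did not pass (log2 fold change -0.58 ± 0.27, adjusted p = 0.172). IL1RL1, the receptor of IL-33, was at 4.64, 2.79 and 3.67 TPM at D28 and 38.7, 38.1 and 38.2 TPM at D28WO. Its washout libraries were tightly grouped above every other library, and it was among the 12 largest rises (log2 fold change 3.08 ± 0.27, adjusted p = 7.0e-05).

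**Figure D3:**
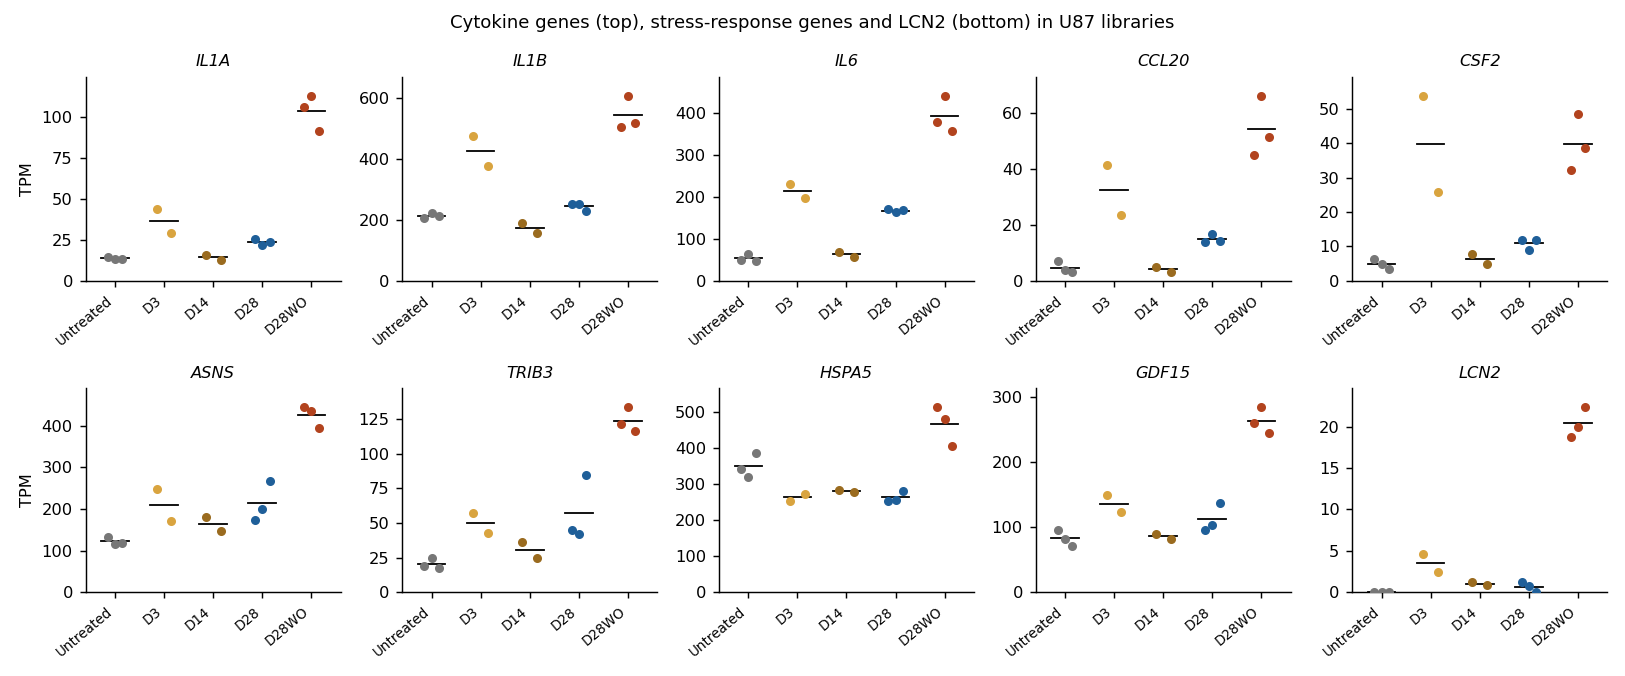
TPM of 10 genes higher at D28WO in the 13 U87 libraries, 1 point per library and a bar at the group mean. In each of them the 3 D28WO libraries lie above the 3 D28 libraries, and for IL1A they lie between 91.5 and 113 TPM against 21.5 to 25.3 TPM.

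The ATF4 and unfolded protein response list also rose. ATF4 is a transcription factor that amino acid shortage or endoplasmic reticulum stress induces through eIF2α phosphorylation, and its targets build and import amino acids. Of 22 genes 15 were higher and 2 lower (median 0.64), against 9.92% and 8.34% of all genes. For 15 of 15 and 2 of 2 the washout libraries lay beyond every other U87 library, against 76.5% of all higher and 62.9% of all lower genes. ASNS, asparagine synthetase, was at 173, 199.6 and 268 TPM at D28 and 445, 436 and 395 TPM at D28WO (log2 fold change 1.01 ± 0.16, adjusted p = 0.00162). TRIB3, a pseudokinase that dampens ATF4, was at 45.2, 41.9 and 84.6 TPM at D28 and 121, 134 and 116 TPM at D28WO (log2 fold change 1.17 ± 0.24, adjusted p = 0.00671). CHAC1, which degrades glutathione, was at 92.0, 71.3 and 136 TPM at D28 and 209.7, 222 and 183 TPM at D28WO (log2 fold change 1.08 ± 0.22, adjusted p = 0.00677). The arms did not overlap in any of these genes, and D28 replicate 3 was the highest continuous library each time. The serine synthesis enzymes PHGDH and PSAT1 differed by 0.82 ± 0.12 with an adjusted p of 0.0012 and 0.79 ± 0.13 with an adjusted p of 0.00213. The cystine transporter SLC7A11 was at 23.2, 23.5 and 32.9 TPM at D28 and 61.3, 52.2 and 51.2 TPM at D28WO (log2 fold change 1.04 ± 0.15, adjusted p = 7.9e-04). ATF4 RNA itself was at 245, 200.1 and 248 TPM at D28 and 264, 262 and 258 TPM at D28WO, slightly higher in all washout libraries and not past the threshold (log2 fold change 0.18 ± 0.091, adjusted p = 0.194) except under quantile normalization (adjusted p = 0.036).

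Chaperones of the endoplasmic reticulum did not move as a block. HSPA5 (BiP) was at 253, 257 and 279.9 TPM at D28 and 513, 481 and 404 TPM at D28WO. DNAJB9, its cochaperone, was at 30.2, 40.2 and 36.2 TPM at D28 and 61.2, 58.3 and 58.4 TPM at D28WO, both higher without overlap (log2 fold change 0.82 ± 0.093, adjusted p = 2.3e-04 and 0.73 ± 0.11 with an adjusted p of 0.00103). SDF2L1 and the calcium-binding chaperone CALR were the 2 lower genes, with CALR at 536, 459 and 458 TPM at D28 and 307, 306 and 331 TPM at D28WO (log2 fold change -0.62 ± 0.095, adjusted p = 0.00123 for CALR and -0.72 ± 0.12 with an adjusted p of 0.00224 for SDF2L1). HSP90B1 was at 556, 523 and 496 TPM at D28 and 505, 508 and 489 TPM at D28WO, with overlap (log2 fold change -0.067 ± 0.088, adjusted p = 0.646). FGF21, a hormone induced by ATF4 that was picked after its values were seen, was at 0.394, 0.556 and 0.791 TPM at D28 and 12.7, 8.83 and 6.82 TPM at D28WO (log2 fold change 2.69 ± 0.29, adjusted p = 1.9e-04), and was listed at 0 in the Untreated libraries. Promoters of ASNS (chr7:97872423-97872522, minus strand) and CHAC1 (chr15:40953221-40953320, plus strand) are printed for the CHOP-ATF4 letters TGATGCAA or TGATGAAA. These were found in 3 of 21 promoters of the list, 1.72% of all promoters, 4.08% of the 319 promoters of protein-coding genes past both limits upward 0.685% of 292 downward and 0.882% of the 11674 tested.
ASNS: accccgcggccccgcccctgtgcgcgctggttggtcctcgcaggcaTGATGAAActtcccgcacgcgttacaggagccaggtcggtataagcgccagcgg
CHAC1: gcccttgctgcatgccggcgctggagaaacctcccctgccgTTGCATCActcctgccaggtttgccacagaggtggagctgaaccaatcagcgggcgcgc

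Among 18 targets of p53, 8 were higher and 0 lower (median 0.34), against 9.92% and 8.34% of all genes. GDF15, a stress cytokine, was at 96.1, 104 and 137 TPM at D28 and 259.7, 284 and 244 TPM at D28WO (log2 fold change 1.23 ± 0.14, adjusted p = 2.2e-04). SESN2, an inhibitor of mTORC1, was at 75.0, 70.9 and 109.6 TPM at D28 and 159, 173 and 155 TPM at D28WO (log2 fold change 0.95 ± 0.15, adjusted p = 0.0014). The arms did not overlap in either. TNFRSF10B, the receptor of TRAIL, was at 95.4, 133 and 123 TPM at D28 and 185, 189 and 175 TPM at D28WO (log2 fold change 0.65 ± 0.10, adjusted p = 0.00152). As background, these 3 genes are also known targets of ATF4 or its partner CHOP (DDIT3), which was itself higher (log2 fold change 0.76 ± 0.14, adjusted p = 0.00386). The best known p53 targets differed less. CDKN1A (p21) was at 157, 160.5 and 169.8 TPM at D28 and 182, 201 and 179 TPM at D28WO, without overlap and not past the threshold (log2 fold change 0.20 ± 0.07, adjusted p = 0.0655) except under quantile normalization (adjusted p = 0.00738). MDM2 was at 136, 135 and 121 TPM at D28 and 164, 145 and 139 TPM at D28WO (log2 fold change 0.19 ± 0.16, adjusted p = 0.447).

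DNA replication genes had the lowest median of the 27 lists. Of 43 S phase genes 35 were lower and 0 higher (median -0.75), against 8.34% lower among all genes, and in 35 of 35 the washout libraries lay below every other U87 library, against 62.9% of all lower genes. All D28WO libraries were below every Untreated library for 39 of the 43 (16% of all genes), compared with 17 of 43 for D28 (9.95%). D28WO replicate 3 was the washout library nearest to D28 in 31 of the 35. CCNE2 (cyclin E2, which opens S phase with CDK2) was at 54.8, 49.6 and 43.4 TPM at D28 and 6.85, 10.4 and 21.9 TPM at D28WO (log2 fold change -1.98 ± 0.29, adjusted p = 0.00102). CDC6, which loads the MCM helicase, was at 157, 147 and 132 TPM at D28 and 53.8, 55.3 and 77.0 TPM at D28WO (log2 fold change -1.23 ± 0.12, adjusted p = 1.4e-04). Replicate 3 was the highest washout library for both genes and did not reach the D28 range.

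GINS2, a subunit of the replicative helicase, was at 58.6, 54.0 and 59.1 TPM at D28 and 18.2, 21.1 and 29.4 TPM at D28WO (log2 fold change -1.31 ± 0.14, adjusted p = 1.6e-04). UHRF1, which maintains DNA methylation, was at 58.6, 71.5 and 59.8 TPM at D28 and 21.8, 23.5 and 35.1 TPM at D28WO (log2 fold change -1.23 ± 0.15, adjusted p = 3.2e-04). PCNA, the polymerase clamp, fell less, from 96.3, 103 and 105 to 69.1, 62.0 and 71.6 TPM (log2 fold change -0.58 ± 0.079, adjusted p = 6.7e-04). MCM5, RRM2, TYMS and CDC45 fell by 0.81, 0.86, 0.76 and 0.88 on the log2 scale, and CDCA7 by 1.51. Promoters of CDCA7 (chr2:173354761-173354860, plus strand), GINS2 (chr16:85688955-85689054, minus strand) and UHRF1 (chr19:4909401-4909500, plus strand) are shown for the E2F letters, TTTGGCGC, TTTCGCGC, TTTCCCGC or TTTGCCGC, found in 13 of the 33 promoters matched for the list (39.4%), in 2.80% of all promoters in 6.85% of those past both limits downward and in 4.35% of those tested.
CDCA7: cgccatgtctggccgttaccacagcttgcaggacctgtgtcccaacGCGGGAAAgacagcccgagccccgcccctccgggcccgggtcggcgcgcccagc
GINS2: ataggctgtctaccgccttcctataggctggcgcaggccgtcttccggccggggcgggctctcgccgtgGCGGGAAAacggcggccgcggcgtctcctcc
UHRF1: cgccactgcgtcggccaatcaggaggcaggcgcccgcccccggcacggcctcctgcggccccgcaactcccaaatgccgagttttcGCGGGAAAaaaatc

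In lists of other phases a smaller share was lower. Of 54 G2/M genes 21 were lower and 0 higher (median -0.20), against 8.34% and 9.92% of all genes. This count depended on single libraries and was 9 to 22 when each was left out, with 9 without D28WO replicate 1 and 11 without D28 replicate 2 or D28WO replicate 2. KIF11, the spindle motor, was at 54.0, 59.4 and 53.4 TPM at D28 and 34.3, 37.7 and 41.4 TPM at D28WO (log2 fold change -0.55 ± 0.086, adjusted p = 0.00137). CDC20, the activator of the anaphase-promoting complex, was at 98.1, 134 and 149 TPM at D28 and 73.9, 70.3 and 91.2 TPM at D28WO (log2 fold change -0.68 ± 0.15, adjusted p = 0.00969). Both separated the arms. MKI67, the proliferation marker, was at 87.1, 88.8 and 71.0 TPM at D28 and 55.5, 58.8 and 79.0 TPM at D28WO and overlapped (log2 fold change -0.36 ± 0.13, adjusted p = 0.069), but it passed without D28 replicate 3 (adjusted p = 0.0355), without D28WO replicate 3 (adjusted p = 0.00752) and under quantile normalization (adjusted p = 0.04). Among 15 tested G1 cyclins, CDKs and inhibitors, 7 were lower and 0 higher, against 8.34% and 9.92% of all genes. The median was -0.29, but -0.16 without D28WO replicate 2. E2F1 was at 71.3, 73.8 and 73.0 TPM at D28 and 31.6, 37.7 and 49.3 TPM at D28WO (log2 fold change -0.89 ± 0.12, adjusted p = 7.1e-04). CCND3 (cyclin D3) was at 96.9, 88.6 and 77.5 TPM at D28 and 38.3, 36.0 and 48.6 TPM at D28WO (log2 fold change -1.08 ± 0.18, adjusted p = 0.00188). Neither overlapped. CCND1 (cyclin D1) was at 275, 294 and 247 TPM at D28 and 230.2, 257 and 255 TPM at D28WO, with overlap (log2 fold change -0.13 ± 0.11, adjusted p = 0.428). CDKN2B and CDKN2C, which encode CDK inhibitors, were listed at 0 in all 6 libraries.

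Glycolytic enzymes were lower as a group. Of 21 genes 17 were lower and 0 higher (median -0.57), against 8.34% and 9.92% of all genes. At D28WO 17 of 17 lay below every other U87 library, against 62.9% of all lower genes. In 19 of 21 the washout libraries were below every Untreated library (16% of all genes), compared with 4 of 21 for D28 (9.95%), and D28WO replicate 3 was nearest to D28 in 16 of the 17. LDHA (lactate dehydrogenase A; chromosome 11, 18394560 to 18408425) was at 1118, 1263 and 1123 TPM at D28 and 514, 563 and 665 TPM at D28WO (log2 fold change -1.01 ± 0.13, adjusted p = 4.2e-04). GAPDH was at 1508, 1459 and 1535 TPM at D28 and 735, 855 and 928 TPM at D28WO (log2 fold change -0.84 ± 0.094, adjusted p = 2.1e-04), but not past the threshold under quantile normalization (adjusted p = 0.0856). Both were lower in each washout library. PFKFB4, which sets the level of a sugar phosphate that activates glycolysis, was at 149, 182 and 168 TPM at D28 and 78.5, 67.2 and 102 TPM at D28WO (log2 fold change -1.02 ± 0.14, adjusted p = 7.3e-04). The glucose transporter SLC2A1 (GLUT1) was at 182, 198 and 180.4 TPM at D28 and 92.7, 93.6 and 114 TPM at D28WO (log2 fold change -0.90 ± 0.11, adjusted p = 3.8e-04). PKM, which makes pyruvate, differed by -0.70 ± 0.075 with an adjusted p of 1.7e-04, and ENO1 by -0.57 ± 0.09 with an adjusted p of 0.00138.

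The hypoxia response overlaps with glycolysis in its control by HIF-1 and moved the same way, with 12 of 20 genes lower and 0 higher (median -0.43), against 8.34% and 9.92% of all genes. ANGPTL4, a secreted lipase inhibitor, was at 65.8, 89.5 and 76.3 TPM at D28 and 19.9, 17.9 and 42.3 TPM at D28WO (log2 fold change -1.59 ± 0.28, adjusted p = 0.0028). CA9, the carbonic anhydrase used as a hypoxia marker, was at 322, 232 and 263 TPM at D28 and 151, 166 and 184 TPM at D28WO (log2 fold change -0.69 ± 0.13, adjusted p = 0.00302). PDK1, which restrains pyruvate entry into mitochondria, was at 132, 125 and 130.4 TPM at D28 and 77.8, 75.5 and 81.2 TPM at D28WO (log2 fold change -0.71 ± 0.084, adjusted p = 2.7e-04). In all 3 genes the arms were apart. VEGFA, a standard HIF-1 target, was at 392, 376 and 376 TPM at D28 and 374, 378 and 376 TPM at D28WO, so the arms overlapped (log2 fold change -0.021 ± 0.071, adjusted p = 0.878, 95% confidence interval -0.18 to 0.13). The LDHA promoter (chr11:18394442-18394541, plus strand) is given for the hypoxia response letters, which are TACGTGC, the alternative GACGTGC and the further alternative GGCGTGC, held by 5 of 20 promoters of the glycolysis list, 4 of 16 of the hypoxia list and 5.91% of all promoters. Among protein-coding genes past both limits downward the share was 5.14%, below the 8.34% of those tested.
LDHA: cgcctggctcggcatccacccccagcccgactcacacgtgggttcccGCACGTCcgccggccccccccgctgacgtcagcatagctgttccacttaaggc

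**Figure D4:**
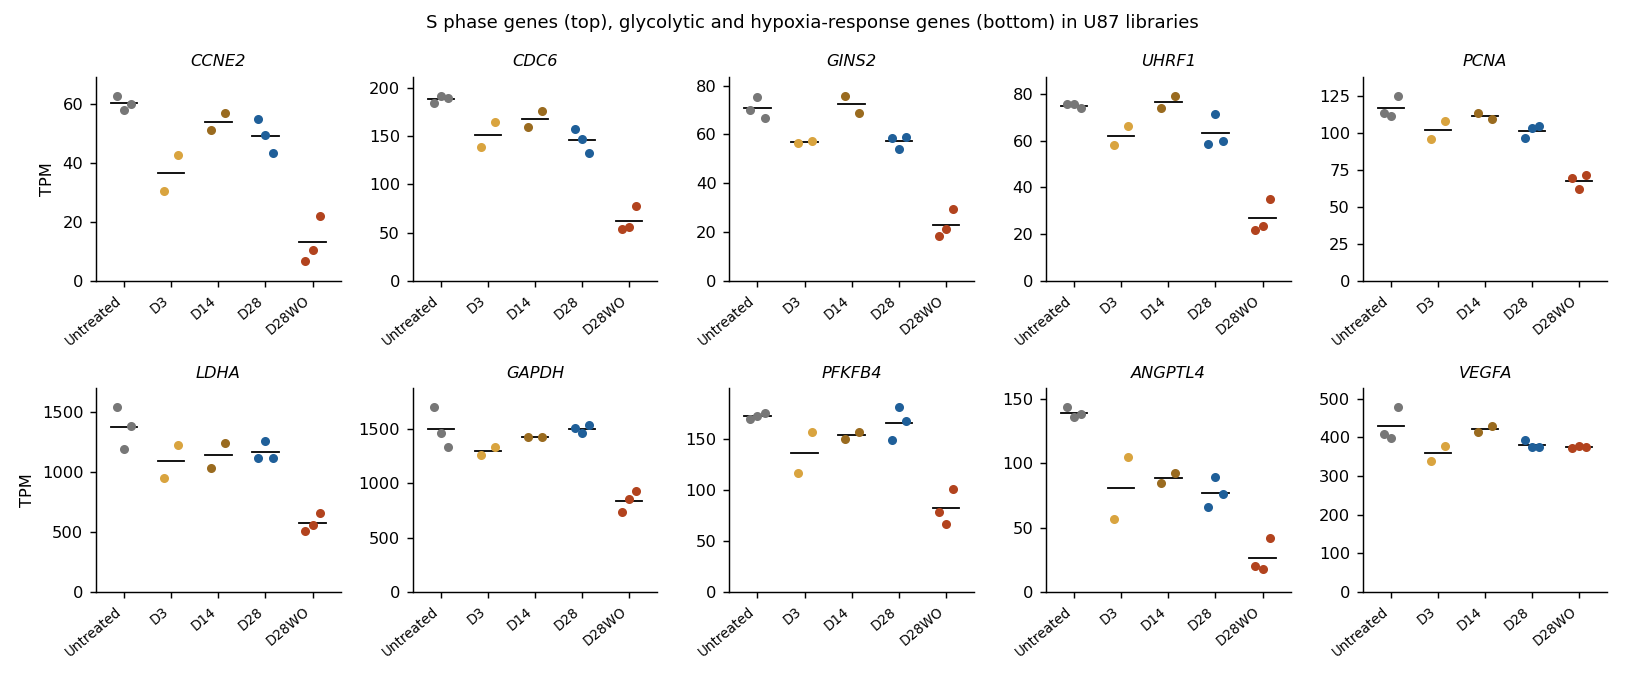
TPM of 10 cell cycle and glycolysis or hypoxia genes in the 13 U87 libraries, 1 point per library and a bar at the group mean. The D28WO libraries lie below all others for CCNE2, CDC6, GINS2, UHRF1, PCNA, LDHA, GAPDH, PFKFB4 and ANGPTL4, while for VEGFA they overlap those of D28.

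Most mitochondrial energy genes did not pass the test. Of 84 nuclear genes of the respiratory chain 20 were lower and 2 higher (median -0.15), against 8.34% and 9.92% of all genes, and in 39 of 84 the washout libraries all lay below the continuous ones, against 15.8%. ATP5MC3, a subunit of the ATP synthase ring, was at 166, 165 and 179 TPM at D28 and 121, 130.5 and 137 TPM at D28WO (log2 fold change -0.39 ± 0.072, adjusted p = 0.00332). NDUFB10 of complex I was at 140.2, 141 and 157 TPM at D28 and 111, 112 and 113 TPM at D28WO (log2 fold change -0.38 ± 0.071, adjusted p = 0.00377). Neither overlapped. Of 12 mitochondrially encoded genes none passed. Their median was -0.26, but -0.019 without D28 replicate 1 and -0.42 without D28 replicate 3, and their summed level ranged from 4686 to 8359 TPM at D28 and from 5148 to 5257 TPM at D28WO. Of 83 cytosolic ribosomal protein genes 9 were lower and 0 higher (median -0.084), a share of 10.8% lower that is close to the 8.34% of all genes. Both arms lay mostly under the Untreated level here, with 70 of 83 genes below every Untreated library at D28 (9.95% of all genes) and 75 of 83 at D28WO (16%).

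**Figure D5:**
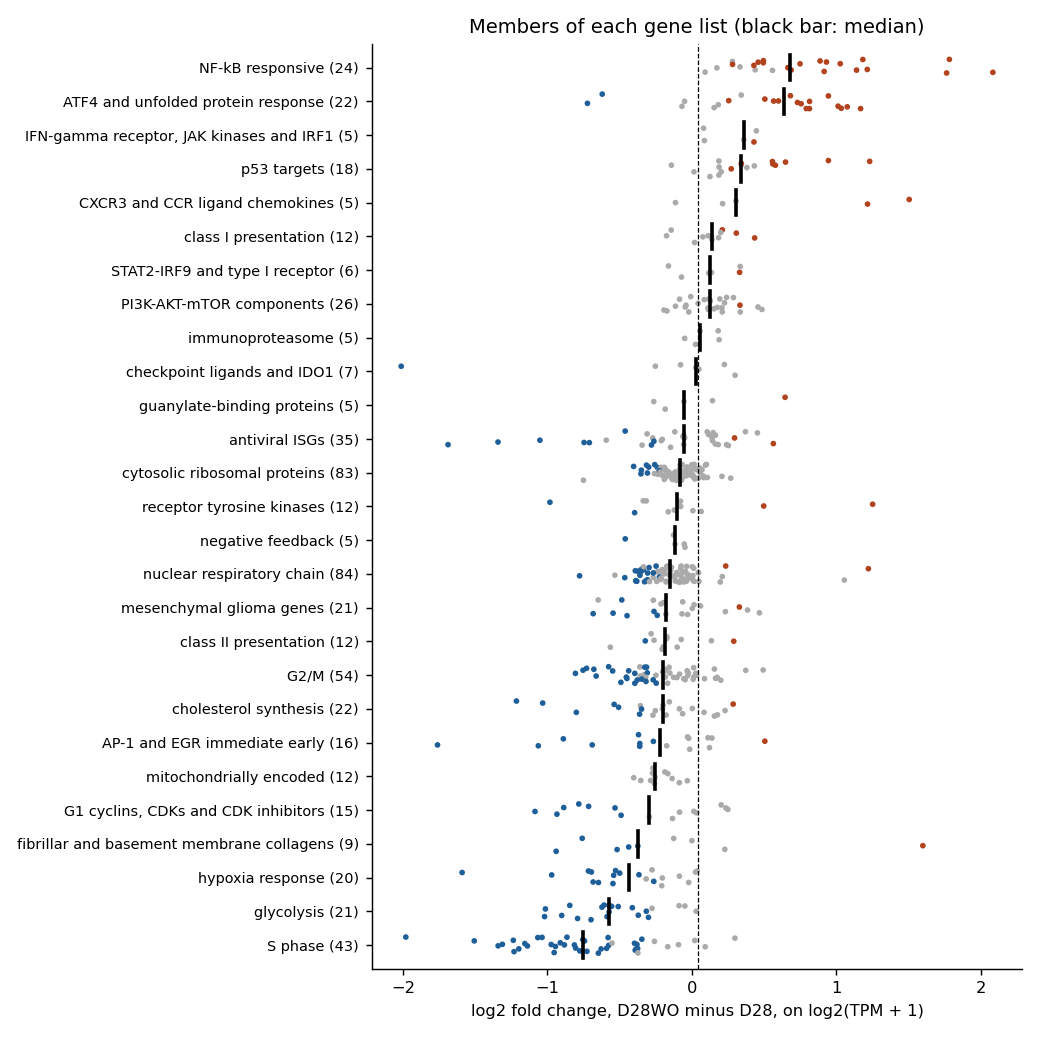
Log2 fold change of D28WO minus D28 for each tested member of the gene lists, 1 point per gene, with genes past the adjusted p threshold in color and the list median as a bar. The dashed line is the median of all genes tested, 0.045. The S phase median is -0.75 and the glycolysis median -0.57, whereas those of the NF-κB and ATF4 lists are 0.68 and 0.64.

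The 12 largest rises and 12 largest falls were named by size, from protein-coding genes past both limits that had no overlap between the arms and at least 2 TPM in the higher one, which 389 rises and 359 falls fulfilled. LCN2 (lipocalin-2, an iron-scavenging protein; chromosome 9, 128149071 to 128153453) was at 1.27, 0.696 and 0 TPM at D28 and 18.8, 20.0 and 22.4 TPM at D28WO (log2 fold change 3.77 ± 0.31, adjusted p = 6.8e-05). LTF (lactoferrin) was at 0, 0.107 and 0.131 TPM at D28 and 11.8, 6.40 and 7.11 TPM at D28WO (log2 fold change 3.09 ± 0.26, adjusted p = 6.8e-05). SPRR2A, a cornified envelope protein of a family with similar copies, was at 1.82, 0.995 and 1.22 TPM at D28 and 33.5, 24.7 and 24.5 TPM at D28WO (log2 fold change 3.61 ± 0.47, adjusted p = 5.2e-04). All of these were listed at 0 in the 3 Untreated libraries. CASP5, an inflammatory caspase that senses lipopolysaccharide, was at 0.982, 1.08 and 1.78 TPM at D28 and 21.4, 17.9 and 17.0 TPM at D28WO (log2 fold change 3.13 ± 0.24, adjusted p = 5.4e-05). CLDN1, a tight junction protein, was at 3.21, 2.75 and 3.83 TPM at D28 and 48.3, 43.1 and 33.2 TPM at D28WO (log2 fold change 3.31 ± 0.25, adjusted p = 5.4e-05). OSCAR, a collagen receptor of myeloid cells, was at 2.19, 2.06 and 3.31 TPM at D28 and 41.6, 33.6 and 37.0 TPM at D28WO (log2 fold change 3.46 ± 0.33, adjusted p = 1.0e-04). The washout libraries of these 3 genes exceeded every other U87 library.

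CCL7, a monocyte chemokine encoded beside CCL2 on chromosome 17, was at 2.28, 0.95 and 2.33 TPM at D28 and 19.4, 17.9 and 17.5 TPM at D28WO (log2 fold change 2.79 ± 0.49, adjusted p = 0.00252). S100P, a calcium-binding protein, was at 0, 1.03 and 0 TPM at D28 and 22.2, 18.0 and 6.94 TPM at D28WO (log2 fold change 3.58 ± 0.52, adjusted p = 8.9e-04), with washout replicate 3 well below the others and still above D28. ESM1 (endocan, an endothelial proteoglycan) was at 0.231, 1.21 and 0 TPM at D28 and between 8.55 and 13.7 TPM at D28WO (log2 fold change 3.09 ± 0.33, adjusted p = 1.8e-04), GJA5 (connexin 40) at 0, 0.0684 and 0 TPM at D28 and 6.73, 7.55 and 5.76 TPM at D28WO (log2 fold change 2.90 ± 0.22, adjusted p = 5.4e-05). MOV10L1, an RNA helicase of the germline, was at 0.528, 1.43 and 0.279 TPM at D28 and 12.9, 11.3 and 7.51 TPM at D28WO (log2 fold change 2.75 ± 0.35, adjusted p = 4.2e-04). The D28 values of these genes are close to 0, and the size of their fold change depends on the pseudocount of 1.

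Most of the largest falls were genes that D28 held above Untreated. SOX18, a transcription factor of vessels, was at 8.40, 12.9 and 9.36 TPM at D28 and 0.631, 0.137 and 0.12 TPM at D28WO (log2 fold change -3.12 ± 0.26, adjusted p = 6.8e-05) and did not exceed 0.0889 TPM in Untreated. TSPAN15, a tetraspanin that guides the protease ADAM10, was at 23.5, 29.9 and 26.3 TPM at D28 and 2.05, 2.94 and 2.65 TPM at D28WO (log2 fold change -2.96 ± 0.22, adjusted p = 5.4e-05). OLFML3, a secreted matrix protein, was at 75.7, 74.6 and 82.3 TPM at D28 and 10.3, 10.9 and 17.4 TPM at D28WO (log2 fold change -2.53 ± 0.22, adjusted p = 6.8e-05). For both genes the washout libraries overlapped or fell below Untreated, at 3.08, 4.58 and 5.58 TPM for TSPAN15 and 16.8, 12.3 and 11.3 TPM for OLFML3. CADM3, an adhesion molecule, was at 21.2, 11.4 and 17.5 TPM at D28 and 2.77, 1.80 and 2.01 TPM at D28WO (log2 fold change -2.44 ± 0.28, adjusted p = 2.3e-04). SOST (sclerostin, a Wnt inhibitor) was at 6.35, 6.29 and 4.45 TPM at D28 and was listed at 0 in all 3 washout libraries (adjusted p = 1.4e-04). STMN4, a microtubule regulator of neurons, was at 6.47, 8.20 and 9.35 TPM at D28 and 0.412, 0.23 and 0.201 TPM at D28WO (log2 fold change -2.80 ± 0.26, adjusted p = 8.6e-05). DRGX, a homeobox gene of sensory neurons, was at 8.21, 12.5 and 6.85 TPM at D28 and 0.428, 0.31 and 1.56 TPM at D28WO (log2 fold change -2.56 ± 0.31, adjusted p = 3.5e-04).

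Other large falls were in genes that Untreated cells already expressed. CYTH4, an exchange factor for ARF GTPases, was at 72.1, 72.9 and 66.6 TPM at D28 and 7.63, 10.3 and 14.4 TPM at D28WO (log2 fold change -2.64 ± 0.23, adjusted p = 6.8e-05), compared with 59.0, 56.5 and 44.1 TPM in Untreated. CXCL14, a constitutive chemokine, was at 28.0, 29.1 and 30.4 TPM at D28 and 2.62, 4.16 and 5.81 TPM at D28WO (log2 fold change -2.58 ± 0.22, adjusted p = 6.8e-05). IGFL3, ERMN (ermin, a myelin cytoskeletal protein) and PLEKHG4B differed by -2.48 ± 0.34 with an adjusted p of 7.1e-04, -2.66 ± 0.41 with an adjusted p of 0.00126 and -2.50 ± 0.31 with an adjusted p of 3.7e-04. In CYTH4, CXCL14, ERMN and PLEKHG4B the washout libraries were below every other U87 library, whereas those of IGFL3 overlapped Untreated.

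Over protein-coding genes the differences were spread along the genome. The median log2 fold change per chromosome ran from -0.052 on chromosome 11 to 0.17 on chromosome 18, and the share past both limits upward from 1.78 to 6.77%. Of 14753 protein-coding genes 412 were higher and 374 lower past both limits. For long non-coding RNAs the counts were 247 and 158 of 6453. In promoters of protein-coding genes past both limits the ISRE letters stood in 5.96% of those higher and 5.14% of those lower, against 5.93% of the 11674 tested. The GAS letters stood in 7.21% of those higher and 6.51% of those lower, against 5.71%. These shares were not tested.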

How the data were processed

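RNA of U87 cells was sequenced by the authors, whose methods name TruSeq libraries, STAR alignment to GRCh38, featureCounts, edgeR and limma-voom. The authors deposited tables labelled TPM, and how TPM was computed is not given in the sources used here. A supplementary sheet of the study speaks of CPM instead. In CPM of whole reads all genes with 1 read share 1 value, but here at most 15 genes of a library shared a value above 0 to all its digits. The values were used as TPM. The methods name a minimum number of reads per sample. Each library here sums to the same total, so its own depth is unknown and no limit can be given for a gene listed at 0. From U87, 13 columns were used. The other 2, which carry 1 name and could not be assigned, were left out. Columns were grouped by the sample labels.

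Values were taken as log2(TPM + 1), so the folds of low genes are understated. Genes with a mean of 0.5 TPM or more over the 6 D28 and D28WO libraries entered a limma fit (version 3.58.1, R 4.3.3, with lmFit and a trended eBayes) of all 5 U87 groups without further terms, and p was adjusted by Benjamini-Hochberg. A gene passed below an adjusted p of 0.05, and past both limits when its fold change also exceeded 1 in size on the log2 scale, which are the authors' limits. Library measures were compared by exact permutation. The procedure was tested on simulated data. The limma p-values rest on the spread within all 5 U87 groups, not only within the arms compared.

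The comparison and the 27 gene lists were chosen with earlier results of these data known. Named genes are list members and the 12 largest rises and falls under the rule given in the report, and others are marked. A few list members are not reported here and were left out of their lists. Coordinates come from GENCODE 44, promoters from RefSeq on GRCh38.p14. Alternatives were the pseudocount, filter, normalization, samples in the fit, replicate block, array weights and leaving out each library. Python 3.11.15 was used for tables.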

Additional observations from a re-analysis of the deposited data

How the results depend on the processing

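Of 110 genes named with an adjusted p under 0.05, 98 kept direction and call under every alternative. The other 12 are B2M, IFNGR2, GAPDH, COL11A1, STAT2, CMPK2, VIM, CD68, CHI3L1, GAD1, S100B and SOX9. With the replicate number as a block in a fit of the 6 libraries, 10 of these missed the threshold, all but GAPDH and COL11A1 (adjusted p from 0.0503 for CMPK2 to 0.126 for SOX9). Past both limits, 460 genes were then higher and 324 lower, and the members called were 5 p53 targets, 7 G2/M genes and 4 antiviral genes. Deviations of same-numbered D28 and D28WO libraries correlated at 0.023, -0.025 and -0.024, so no shared effect of the number was visible. These values cannot decide whether same-numbered libraries come from the same culture. With the block in the fit of all groups no named gene changed its call. A fit of the 6 libraries without the block called 12 G2/M and 5 antiviral genes lower. Why these counts moved was not tested, beyond the fewer libraries in those fits.

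Quantile normalization gave list medians of 0.092 for STAT2-IRF9, -0.11 for antiviral genes, -0.15 for negative feedback, -0.038 for checkpoint ligands, -0.41 for glycolysis, -0.033 for ribosomal proteins, 0.029 for mesenchymal genes (from -0.18) and -0.28 for AP-1 genes. It also turned the sign of VIM (0.029, from a call of -0.26) and of the uncalled CD274 (-0.011), GFAP (-0.0028), HSP90B1 (0.025) and VEGFA (0.073). Median-ratio size factors gave 0.32 for the IFN-γ receptor list, -0.22 for mesenchymal genes, 0.084 for STAT2-IRF9, -0.16 for negative feedback, 0.300 for p53 targets, -0.48 for hypoxia, -0.13 for ribosomal proteins and 0.080 for PI3K-AKT-mTOR, and turned CD274 (-0.015). The chemokine median was 0.40 with a pseudocount of 0.1 and 0.76 for genes with a mean TPM of 1 or more. The causes were not tested.

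Leaving out each library in turn gave 538 to 702 higher and 399 to 628 lower genes past both limits. The medians ranged from 0.26 to 0.43 for the IFN-γ receptor list, -0.22 to -0.13 for mesenchymal genes, 0.084 to 0.17 for STAT2-IRF9, -0.11 to -0.029 for antiviral genes, 0.24 to 0.47 for chemokines, -0.13 to -0.075 for negative feedback, -0.064 to 0.024 for checkpoint ligands, 0.59 to 0.73 for NF-κB, -0.27 to -0.19 for G2/M, -0.42 to -0.16 for G1, -0.46 to -0.38 for hypoxia, -0.42 to -0.019 for mitochondrially encoded genes, -0.28 to -0.12 for class II, 0.0082 to 0.12 for the immunoproteasome, -0.13 to -0.063 for ribosomal proteins, -0.22 to -0.074 for receptor tyrosine kinases and -0.27 to -0.14 for AP-1. Lower members numbered 9 to 22 for G2/M and 5 to 7 for antiviral genes. The log2 fold changes of the uncalled genes CD274 (-0.027 to 0.089), GFAP (-0.28 to 0.31) and VEGFA (-0.031 to 6.0e-05) changed sign within these ranges.

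TPM holds no depth, so the precision of low genes is unknown, and the 3 libraries of an arm limit every exact test to a smallest p of 0.1.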

Other observations

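Some matrix, growth factor receptor and sterol genes also separated the arms. Of 9 tested collagen genes 5 were lower and 1 higher at D28WO (median log2 fold change -0.37), against 8.34% and 9.92% of all genes. COL1A2, a chain of type I collagen, was at 264, 290.1 and 285 TPM at D28 and 134, 143 and 159.8 TPM at D28WO (log2 fold change -0.94 ± 0.082, adjusted p = 7.0e-05). COL1A1, its partner, was at 199, 218 and 238 TPM at D28 and 119, 119 and 149 TPM at D28WO (log2 fold change -0.76 ± 0.11, adjusted p = 7.5e-04). For both all washout libraries lay below every Untreated library. The 1 higher collagen, COL11A1, was at 2.47, 1.61 and 3.17 TPM at D28 and 12.6, 7.90 and 7.67 TPM at D28WO (log2 fold change 1.60 ± 0.38, adjusted p = 0.0128), a call that was lost without D28WO replicate 1 (adjusted p = 0.0611). Of 21 mesenchymal glioma genes 6 were lower and 1 higher, against 8.34% and 9.92% of all genes. Their median was -0.18, but 0.029 under quantile normalization. SNAI2, a transcription factor of the mesenchymal state, differed by -0.45 ± 0.069 with an adjusted p of 0.00123. Of 12 tested receptor tyrosine kinases 2 were higher and 2 lower (median -0.099), against 9.92% and 8.34% of all genes. PDGFRB, the PDGF receptor of stromal cells, was 1 of the lower ones, at 62.9, 51.6 and 64.0 TPM at D28 and 28.0, 22.9 and 39.9 TPM at D28WO (log2 fold change -0.98 ± 0.18, adjusted p = 0.003). EGFR was at 80.0, 85.7 and 74.7 TPM at D28 and 69.8, 74.6 and 76.3 TPM at D28WO and overlapped (log2 fold change -0.12 ± 0.078, adjusted p = 0.322). Of 26 PI3K-AKT-mTOR components 1 was higher and 0 lower (median 0.12), against 9.92% and 8.34% of all genes. Of 22 cholesterol synthesis genes 7 were lower and 1 higher, against 8.34% and 9.92% of all genes. Among the lower was DHCR7, the last enzyme of the pathway, at 89.8, 76.5 and 83.1 TPM at D28 and 40.4, 46.4 and 56.3 TPM at D28WO (log2 fold change -0.80 ± 0.12, adjusted p = 9.3e-04).

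Of 16 immediate early AP-1 and EGR genes 8 were lower and 1 higher, against 8.34% and 9.92% of all genes. Their median was -0.22, but -0.14 without D28WO replicate 1. FOS was at 209, 240.1 and 181 TPM at D28 and 107, 109 and 121 TPM at D28WO (log2 fold change -0.89 ± 0.10, adjusted p = 2.3e-04) after 346 and 366 TPM at D14, and JUN at 188, 185 and 186 TPM at D28 and 109, 117 and 119 TPM at D28WO (log2 fold change -0.69 ± 0.067, adjusted p = 1.2e-04). JUN lay below every Untreated library (185, 183 and 214 TPM). EGR2 was at 91.0, 71.2 and 65.6 TPM at D28 and 34.2, 30.6 and 42.7 TPM at D28WO (log2 fold change -1.06 ± 0.15, adjusted p = 6.8e-04). None of these 3 genes overlapped between the arms. Among markers of the line, NES (nestin, of neural progenitors) was at 40.9, 39.6 and 41.1 TPM at D28 and 20.9, 19.7 and 28.9 TPM at D28WO (log2 fold change -0.80 ± 0.13, adjusted p = 0.00163). OLIG2, a glial transcription factor, was at 7.01, 4.98 and 10.1 TPM at D28 and 26.1, 32.0 and 22.0 TPM at D28WO (log2 fold change 1.76 ± 0.37, adjusted p = 0.00679), again without overlap. GFAP, the astrocyte filament, was at 19.1, 15.5 and 7.90 TPM at D28 and 13.9, 11.8 and 16.8 TPM at D28WO, with overlap (log2 fold change 0.069 ± 0.37, adjusted p = 0.928). Of 5 neuron markers, SNAP25, which serves vesicle release, was at 87.3 to 114 TPM at D28 and fell to between 39.6 and 53.4 TPM at D28WO (log2 fold change -1.10, adjusted p = 2.9e-04), and the summed level of the 5 was 124 to 167 TPM and 62.0 to 82.6 TPM. GAD1, which makes the transmitter GABA, was at 29.5 to 45.4 TPM at D28 and 16.5 to 24.7 TPM at D28WO (adjusted p = 0.0114, but 0.0534 without D28WO replicate 1). The defining neuron marker RBFOX3 did not exceed 0.678 TPM. Their part in the results was not tested.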
